A study of Mus musculus with 6 samples.

Results

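Of the 34745 genes counted in the RNA of CD8+ effector T cells (Teff), 36 were examined as the genes of sphingolipid and ceramide metabolism. They were taken by name, as the listed enzymes of ceramide synthesis and breakdown, sphingomyelin, glycosphingolipids and sphingosine-1-phosphate (S1P) with their regulators, and each of the 36 names was present in all 6 libraries. A count was present for 35 of the 36, 25 had the mean FPKM of at least 1 that the main test required, 10 had counts below that minimum, and 1 had no count at all. FPKM is the count scaled by gene length and by the library total, so it can be set side by side between genes.

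The libraries comprised 3 from WT mice (C57BL/6J) and 3 from *Scd-1*-/- mice (B6.129-Scd1tm1Ntam/J), which lack stearoyl-CoA desaturase 1 in every cell. The study used male mice 6 to 8 weeks old. CD8+ T cells were enriched from spleen with magnetic beads and received anti-CD3 (5 μg/mL), anti-CD28 (0.5 μg/mL) and IL-2 (100 U/mL) for 3 days, then IL-2 without the antibodies for 3 more, and RNA was taken on day 6. The WT mice were bought and the knockout mice were donated, no source states that they were littermates, and the labels do not say whether each library came from its own mouse. The p-values therefore measure the spread between these libraries, which may be technical.

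Sphingolipids are built on a sphingoid base that serine palmitoyltransferase makes from serine and palmitoyl-CoA. The base is acylated and desaturated to ceramide, the branch point from which cells make sphingomyelin for the plasma membrane, glucosylceramide and gangliosides, or, after ceramide is hydrolysed, sphingosine and S1P. In T cells these lipids are known as parts of the membrane domains in which receptors signal, and S1P is the signal that draws lymphocytes out of lymphoid organs. Stearoyl-CoA desaturase 1, absent here, uses the same saturated acyl-CoA pool from which sphingoid bases are made.

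Library totals ran from 14034479 to 15866216 counts, and where a gene has no count the upper limit is 3 counts (0.189 to 0.214 CPM), for counting error only. *Scd1* itself had 4272, 3074 and 3761 counts in WT and 30, 36 and 20 counts in *Scd-1*-/- libraries, which matches their labels. Replicate 1 lay on the same side of replicates 2 and 3 in both genotypes for 57.2% of all tested genes. The first principal component of log2 CPM held 44.2% of the variance. The CD8 T cell markers *Cd3d*, *Cd3e*, *Cd3g*, *Cd8a*, *Cd8b1*, *Trac*, *Gzmb* and *Prf1* were all expressed. Their summed FPKM was 4370 to 4920 in WT and 5760 to 7460 in *Scd-1*-/- libraries, mostly *Gzmb* (2430 to 2670 and 3510 to 5420). *Prf1*, perforin, was 4.97-fold higher in the knockout (edgeR adjusted p = 0.0259), and *Cd8a* was at 27.9 to 36.6 FPKM there against 43.2 to 47.6 FPKM in WT. The B cell markers *Ms4a1*, *Pax5* and *Blnk* had no count in any library, and the summed FPKM of the B cell list, mostly *Ighm*, was 146 to 269 in WT and 97.6 to 146 in *Scd-1*-/- libraries. *Cd79b* was at 9.41 to 10.7 FPKM in WT and 3.13 to 7.9 FPKM in the knockout, without overlap. The sum of 7 myeloid markers was 16.4 to 22.2 FPKM in WT and 46.7 to 78.5 FPKM in *Scd-1*-/- libraries, nearly all of it *Fcer1g* and *Cd68*, whereas *Adgre1* and *Mpo* had no count. Natural killer cell markers summed to 292 to 448 FPKM in WT and 585 to 624 FPKM in *Scd-1*-/- libraries, mostly *Nkg7*. Of these 6 markers, 4 were higher in every knockout library than in every WT library, namely *Nkg7*, *Klrb1c* (0.501 to 0.938 FPKM in WT and 1.66 to 9.39 FPKM in the knockout), *Klre1* (0.688 to 1.71 and 4.11 to 5.41 FPKM) and *Klrb1b* (at most 0.109 and 0.654 FPKM), while *Ncr1* was at or below 0.221 FPKM throughout. The sum of 4 CD4 T cell markers lay at 6.15 to 12.2 FPKM in WT and 8.01 to 11.2 FPKM in *Scd-1*-/- libraries, nearly all of it *Zbtb7b* (*Cd4* itself was at 0.106 to 0.345 and 0.0127 to 0.0648 FPKM, without overlap), and 7 erythroid and platelet markers summed to at most 0.623 FPKM. With the replicate block, the edgeR adjusted p was under 0.05 for *Prf1*, *Gzmb*, *Fcer1g*, *Cd14*, *Nkg7*, *Klrb1c*, *Klre1* and *Klrb1b*, all higher in the knockout, and for *Cd79b* and *Ighm*, both lower. The part of these markers in the values given here was not tested. In bulk RNA, fewer cells of a type and less RNA per cell cannot be told apart.

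Among the genes of sphingolipid metabolism, 3 had an adjusted p under 0.05 in the fit that blocks on the replicate number and none in the fit without that block. *Ugcg*, the glucosylceramide synthase that opens the glycosphingolipid branch, was 1.72-fold higher in *Scd-1*-/- Teff. *Smpdl3b*, a membrane-anchored relative of the sphingomyelinases known to dampen Toll-like receptor signalling, was 1.87-fold higher, and *Smpd4*, a neutral sphingomyelinase of the endoplasmic reticulum and nuclear envelope, was at 0.507 of its WT level. None of the 25 tested genes passed the thresholds of the study (p under 0.001 and a log2 fold change whose size is 1 or more), where 0.738% of all 9627 tested genes did. Likewise 0 of 25 had an adjusted p under 0.05 by edgeR's quasi-likelihood test, adjusted over all genes tested after Benjamini and Hochberg, against 0.114% of all genes. At an unadjusted p under 0.05, 5 of the 25 were called, 4 higher (*Ugcg*, *Smpdl3b*, *Ormdl1* and *B4galt5*) and 1 lower (*Smpd4*), or 20% where the share over all genes was 10.1% (5.42% higher and 4.68% lower). That count was 3 without WT replicate 2 (5.56% of all genes), without WT replicate 3 (6.93%) or without *Scd-1*-/- replicate 2 (6.62%), and 10 with replicates 2 and 3 alone (29.4%). The labels do not say whether same-numbered libraries shared a day or batch. The replicate number was used as a block because of how the libraries of these data deviated. Replicates 1 deviated together (correlation 0.618). WT replicate 3 went with *Scd-1*-/- replicate 2 (0.422) more than the replicates 2 went with each other (0.324). With that block, *Ugcg*, *Smpdl3b* and *Smpd4* had an adjusted p under 0.05 in the same test, that is 3 of 25 against 4.7% of all genes (2.64% higher and 2.06% lower). DESeq2 without the block called the same 3 genes, against 2.76% of all genes. At an unadjusted p under 0.05 the block gave 7 of 25, against 22.4% of all genes, the additional 2 being *Sptssa* and *Asah1*. In that fit the edgeR adjusted p was 0.190 for *Sptssa* and 0.211 for *Asah1*. The median log2 fold change over the 25 was 0.03, with 15 above 0 and 10 below, and over all tested genes it was 0.00. The median size of the log2 fold change was 0.18 in both.

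**Figure D1:**
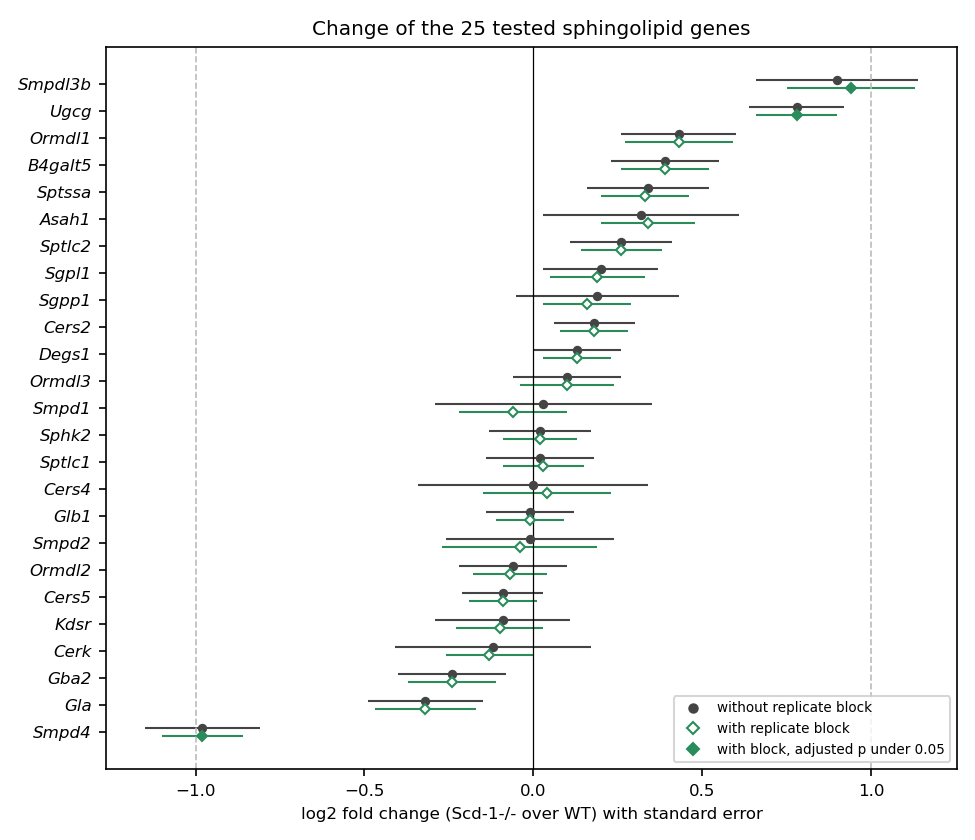
Log2 fold change (*Scd-1*-/- over WT, x axis) of the 25 tested sphingolipid genes, ordered by size, with its standard error as bars; circles are the fit without and diamonds the fit with the replicate block, diamonds being filled where the adjusted p was under 0.05, and dashed lines mark a log2 fold change of 1 in size. *Smpdl3b* (0.90) and *Ugcg* (0.78) lie at one end and *Smpd4* (-0.98) at the other, and the remaining 22 lie between -0.32 and 0.43.

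Groups that did not overlap, meaning that all 3 libraries of a genotype lay above all 3 of the other in TMM-scaled CPM, were found for 8 of the 25 genes (32%), where 16.1% of all tested genes showed this. In 5 of the 8 (*Ugcg*, *Smpdl3b*, *Ormdl1*, *B4galt5* and *Cers2*) the *Scd-1*-/- libraries were the higher ones, against 8.4% of all genes, and in 3 (*Smpd4*, *Gba2* and *Gla*) the lower ones, against 7.66%. The groups of *Cers2*, *Gba2* and *Gla* overlapped when the TMM factors were computed over all genes with a count, and the count was then 7 of 35 (20%), *Cers6* and *Degs1* included, where 13.5% of all genes did not overlap. Without *Scd-1*-/- replicate 1 the count was 16 of 25 (64%), where 38% of all tested genes did not overlap, and with replicates 2 and 3 alone it was 18 of 25 (72%), against 59.8% of all tested genes. Without WT replicate 1 it was 10 of 25 (40%), near the 38% of all tested genes.

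The promoters of *Ugcg*, *Smpdl3b* and *Smpd4* are shown because these were the 3 genes called with the replicate block. Each window spans 250 bases before to 50 bases after the RefSeq start of the gene on GRCm38.p6, written 5′ to 3′ on the strand of the gene. The gene positions given elsewhere here are from GENCODE and can start earlier. By those positions the *Ugcg* window lies wholly within the gene (59189257 to 59222833). The RefSeq start of *Smpdl3b* also lies inside its gene (132732966 to 132757252). Capitals mark matches, on either strand, to the GC box (GGGCGG), the CCAAT box (CCAAT) and the E-box (CACGTG). The core of the sterol response element (TCACCCCAC) and an amino acid response element (TGATGCAA) were searched in the same way and matched in none of the 3 windows.
*Ugcg*, chr4:59189300-59189599, plus strand: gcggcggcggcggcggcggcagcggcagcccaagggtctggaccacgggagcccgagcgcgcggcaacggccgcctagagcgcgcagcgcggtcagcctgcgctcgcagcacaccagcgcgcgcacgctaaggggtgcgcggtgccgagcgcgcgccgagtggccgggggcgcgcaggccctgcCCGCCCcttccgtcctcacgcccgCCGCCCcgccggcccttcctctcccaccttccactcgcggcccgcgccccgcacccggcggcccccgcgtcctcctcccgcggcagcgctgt
*Smpdl3b*, chr4:132757122-132757421, minus strand: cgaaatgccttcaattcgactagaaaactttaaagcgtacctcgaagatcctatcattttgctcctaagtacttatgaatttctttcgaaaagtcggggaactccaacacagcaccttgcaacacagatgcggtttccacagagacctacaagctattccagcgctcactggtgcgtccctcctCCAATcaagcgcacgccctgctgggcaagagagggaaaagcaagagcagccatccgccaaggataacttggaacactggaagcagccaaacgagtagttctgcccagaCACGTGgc
*Smpd4*, chr16:17619104-17619403, plus strand: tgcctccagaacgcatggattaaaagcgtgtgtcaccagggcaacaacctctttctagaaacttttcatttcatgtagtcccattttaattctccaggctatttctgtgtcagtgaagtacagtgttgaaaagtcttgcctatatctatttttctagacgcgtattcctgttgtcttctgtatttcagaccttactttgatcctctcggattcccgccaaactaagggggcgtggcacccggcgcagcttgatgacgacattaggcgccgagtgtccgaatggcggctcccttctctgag

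The windows differ in composition. That of *Ugcg* is 81.3% G and C with 53 CpG dinucleotides, a G and C content above that of 99.3% of the 32851 mouse windows in the same table, and its 2 GC boxes start at bases -66 and -42. GC boxes were present in 35.7% of all windows and in 30 of the 49 windows (61.2%) listed for 34 of the 36 sphingolipid genes, where windows of the same gene can share sequence. Those 49 windows were also richer in G and C, with a median of 62.7% and 20 CpG. Over all windows the medians were 52.7% and 7 CpG. The *Smpdl3b* window is 50% G and C, with a CCAAT box at base -66 and an E-box at base 43 after the start. These motifs were held by 37.4% and 7.15% of all windows, and by 40.8% and 20.4% of the 49 windows. The *Smpd4* window is 47.3% G and C and contains none of the 5 motifs. A match describes these letters and is not evidence of binding.

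Across the pathway, levels in single libraries ran from 0 to 110 FPKM. The acid sphingomyelinase *Smpd1* (mean over the 6 libraries 70.5 FPKM) and the lysosomal beta-galactosidase *Glb1* (55.1 FPKM) had the highest means of the 36 genes, and their ranges over libraries overlapped. *Sptssa* followed at 39.8 FPKM, and below it *Cers2*, *Sptlc1*, *B4galt5*, *Ormdl2*, *Degs1* and *Ugcg* formed a run from 27.7 to 22.5 FPKM in which each neighbour overlapped the next. In that order of 36 genes, a range over libraries was clear of the next gene's range at only 3 places: between *Sptssa* and *Cers2*, between *Gba2* and *Cers4*, and between *Acer2* and *B4galt6*. *Degs2*, *Sgms2* and *B4galt6* had at most 9 counts in any library, and *Sphk1* had none.

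**Figure D2:**
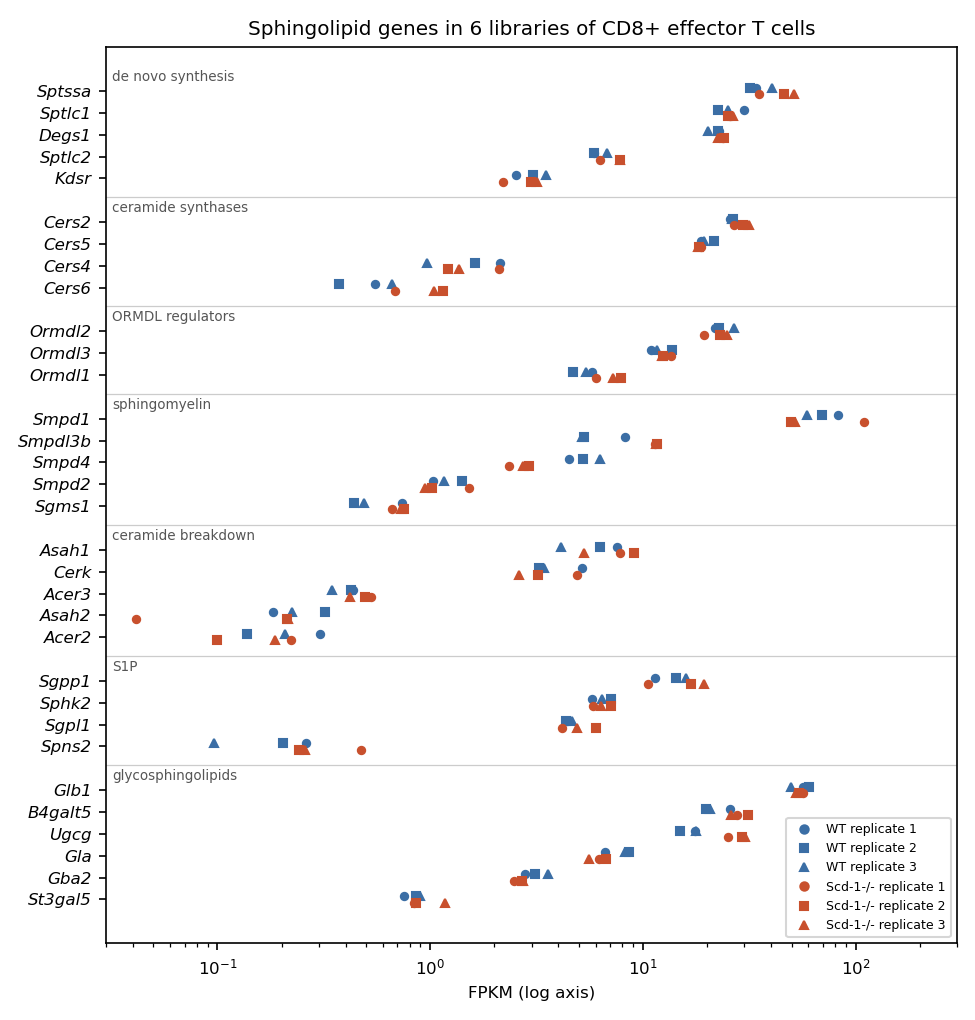
FPKM (x axis, log scale) of the 32 sphingolipid genes with a mean of at least 0.1 FPKM, by role; each symbol is 1 library, blue for WT and red for *Scd-1*-/-, with circles, squares and triangles for replicates 1, 2 and 3. *Degs2*, *Sgms2*, *B4galt6* and *Sphk1* lie under this limit and are not drawn, and the 2 colours stand well apart for *Ugcg*, *Smpdl3b* and *Smpd4*.

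De novo synthesis begins with serine palmitoyltransferase, whose core subunits are *Sptlc1* and *Sptlc2* and whose small activating subunit is *Sptssa*. *Sptlc1* (chromosome 13) was at 29.9, 22.6 and 25.2 FPKM in WT replicates 1 to 3 and at 25.7, 25.1 and 26.6 FPKM in *Scd-1*-/- replicates 1 to 3. The knockout libraries lay inside the WT range, and the log2 fold change was 0.02 (standard error, SE, 0.16, 95% interval -0.34 to 0.38). *Sptlc2* (chromosome 12) was at 5.87, 5.92 and 6.79 FPKM in WT and at 6.27, 7.85 and 7.79 FPKM in *Scd-1*-/- libraries. Replicates 2 and 3 of the knockout exceeded every WT library and replicate 1 did not, and the log2 fold change of 0.26 (SE 0.15, adjusted p = 0.610) did not pass. *Sptssa* showed the same arrangement, at 33.9, 32.0 and 40.5 FPKM in WT and 35.2, 46.1 and 51.5 FPKM in *Scd-1*-/- libraries (log2 fold change 0.34, SE 0.18, adjusted p = 0.589). Per length, *Sptlc2* made up 9.19% ± 0.687 (SD, n = 3) of the summed FPKM of the 3 subunit genes in WT and 9.45% ± 0.433 in the knockout.

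The ketosphinganine reductase *Kdsr* and the dihydroceramide desaturase *Degs1*, which puts the double bond into ceramide, complete the route. *Degs1* (chromosome 1) was at 22.8, 22.6 and 20.2 FPKM in WT and at 23.9, 24.1 and 22.6 FPKM in *Scd-1*-/- libraries. The groups overlapped, and the log2 fold change of 0.13 (95% interval -0.17 to 0.42) did not pass. *Degs2*, whose enzyme can also hydroxylate the base, had 3 counts in WT replicate 2 and none elsewhere. *Kdsr* ranged from 2.19 to 3.51 FPKM over the 6 libraries, with a log2 fold change of -0.09. All 5 tested genes of this role lay between -0.09 and 0.34, with adjusted p from 0.589 to 0.984.

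Ceramide synthases join the base to a fatty acid, and each prefers other chain lengths: CERS2 very long chains, CERS5 and CERS6 palmitate, and CERS4 chains in between. *Cers2* (chromosome 3) was at 25.8, 26.4 and 26.3 FPKM in WT and at 26.8, 29.5 and 31.6 FPKM in *Scd-1*-/- libraries. The groups did not overlap, but the margin was small and the log2 fold change of 0.18 (SE 0.12, adjusted p = 0.675) did not pass. *Cers6* (chromosome 2), under the FPKM minimum, was at 0.548, 0.371 and 0.661 FPKM in WT and 0.686, 1.15 and 1.04 FPKM in *Scd-1*-/- libraries. All knockout libraries exceeded all WT libraries, replicate 1 only just. Fitted with no FPKM minimum, the log2 fold change of *Cers6* was 0.88 (SE 0.31, adjusted p = 0.386, and 0.0892 with the block). *Cers5* (log2 fold change -0.09) and *Cers4* (0.00) overlapped between the genotypes.

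Within the family, *Cers2* held 54.4% ± 1.45 (SD, n = 3) of the summed FPKM in WT and 58.3% ± 2.70 in *Scd-1*-/- Teff, and *Cers5* held 41.2% ± 1.77 and 36.7% ± 2.1. *Cers6* held 1.10% ± 0.333 in WT and 1.91% ± 0.448 in *Scd-1*-/- Teff. The shares of *Cers2* overlapped between genotypes, with 55.4% in *Scd-1*-/- replicate 1 against 55.7% in WT replicate 3. Those of *Cers5* did not overlap, at 39.7% to 43.1% in WT and 34.7% to 38.9% in the knockout. These shares are a description, with no test.

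The 3 ORMDL proteins hold serine palmitoyltransferase back when ceramide is plentiful. *Ormdl1* (chromosome 1) was at 5.79, 4.72 and 5.43 FPKM in WT and at 6.03, 7.91 and 7.25 FPKM in *Scd-1*-/- libraries. The groups did not overlap, with replicate 1 of the knockout closest to WT, and the log2 fold change of 0.43 (SE 0.17, 95% interval 0.03 to 0.83) had an unadjusted p of 0.0391 and an adjusted p of 0.467 (0.173 with the block) in edgeR's quasi-likelihood test. *Ormdl3* (chromosome 11) was at 10.9, 13.7 and 11.7 FPKM in WT and 13.6, 12.5 and 12.3 FPKM in *Scd-1*-/- libraries, a log2 fold change of 0.10 whose groups overlapped. *Ormdl2*, the most abundant at 19.4 to 26.9 FPKM, had a log2 fold change of -0.06. The share of *Ormdl1* in the family was 12.9% ± 1.89 (SD, n = 3) in WT and 16.7% ± 1.44 in *Scd-1*-/- Teff, with 11.4% to 15% against 15.4% to 18.3%, while the family sum ran from 38.5 to 44.1 FPKM in WT and from 39.0 to 44.5 FPKM in the knockout.

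**Figure D3:**
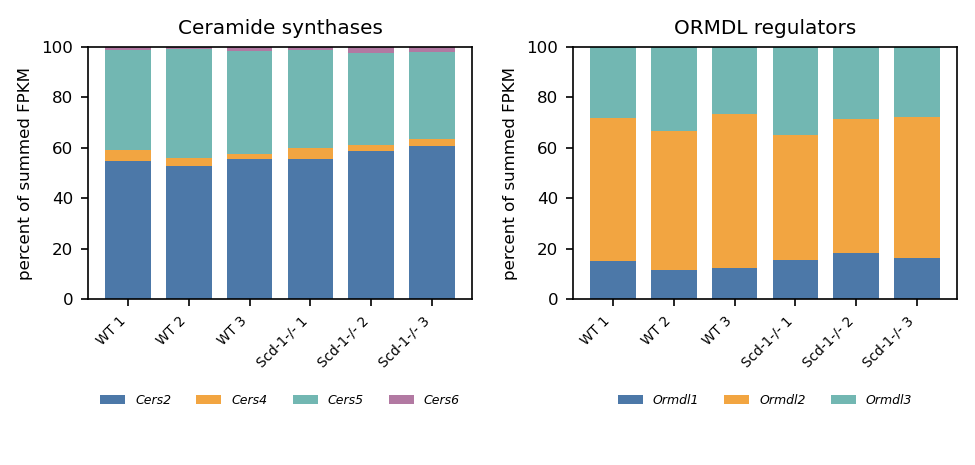
Percent of the summed FPKM (y axis) held by each ceramide synthase gene (left) and each ORMDL gene (right) in the 6 libraries. *Cers2* and *Cers5* fill nearly all of the first family in every library, and *Ormdl1* takes 11.4% to 15% of the second in WT and 15.4% to 18.3% in *Scd-1*-/- libraries.

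Sphingomyelin is made by the synthases *Sgms1* and *Sgms2* and broken down to ceramide by sphingomyelinases. The lowest log2 fold change among the 25 tested genes was that of *Smpd4* (chromosome 16, 17619354 to 17644828, GRCm38). Its FPKM was 4.5, 5.24 and 6.28 in WT and 2.34, 2.91 and 2.73 in *Scd-1*-/- libraries, or 5.34 ± 0.896 and 2.66 ± 0.293 (SD, n = 3 each). Every knockout library lay well under every WT library. The log2 fold change was -0.98 (SE 0.17, 95% interval -1.37 to -0.59), with an adjusted p of 0.0863 without the block and 0.00694 with it, by edgeR's quasi-likelihood test. Leaving out 1 library moved the log2 fold change to between -1.08 and -0.87, with an adjusted p under 0.05 only without WT replicate 1 (0.0344).

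*Smpdl3b* (chromosome 4, 132732966 to 132757252) went the other way, at 8.22, 5.26 and 5.15 FPKM in WT and 11.4, 11.6 and 11.5 FPKM in *Scd-1*-/- libraries. The 3 knockout libraries were nearly equal and above WT, where replicate 1 was the highest. Its log2 fold change was 0.90 (SE 0.24, 95% interval 0.36 to 1.45), with an adjusted p of 0.240 without the block and 0.0378 with it in edgeR's quasi-likelihood test. Leaving out 1 library gave 0.77 to 1.18, with an edgeR adjusted p under 0.05 only without WT replicate 1 (0.0358) and from 0.169 to 0.781 otherwise. Without WT replicate 1 *Smpdl3b* and *Smpd4* (-1.08) passed the thresholds of the study, which 1.49% of all genes did in that fit, where 1.38% of all genes had an adjusted p under 0.05. *Smpdl3b* is known from macrophages as well, and the myeloid markers *Lyz2* and *Csf1r* were at or below 0.113 FPKM in every library, while *Cd14* was at 0.179 to 0.461 FPKM in WT and 1.14 to 1.89 FPKM in *Scd-1*-/- libraries and *Fcer1g* at 5.05 to 10.3 and 18.4 to 68.4 FPKM. Their part in the *Smpdl3b* difference was not tested.

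The level of the lysosomal *Smpd1* was 82.8, 69.4 and 59.1 FPKM in WT and 110, 49.7 and 52.2 FPKM in *Scd-1*-/- libraries. Replicate 1 was the highest in both genotypes, and the groups overlapped (log2 fold change 0.03, SE 0.32, 95% interval -0.72 to 0.77). The neutral sphingomyelinase *Smpd2* was low, at 0.946 to 1.53 FPKM, and its log2 fold change was -0.01. *Sgms1* (chromosome 19), the Golgi synthase, was under the minimum at 0.734, 0.438 and 0.490 FPKM in WT and 0.659, 0.752 and 0.728 FPKM in *Scd-1*-/- libraries. WT replicate 1 lay among the knockout libraries, and the log2 fold change of 0.38 (SE 0.26, adjusted p = 0.744) did not pass. *Sgms2*, the plasma membrane synthase, had 4 counts in WT replicate 1, 3 counts in *Scd-1*-/- replicate 1 and none elsewhere.

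**Figure D4:**
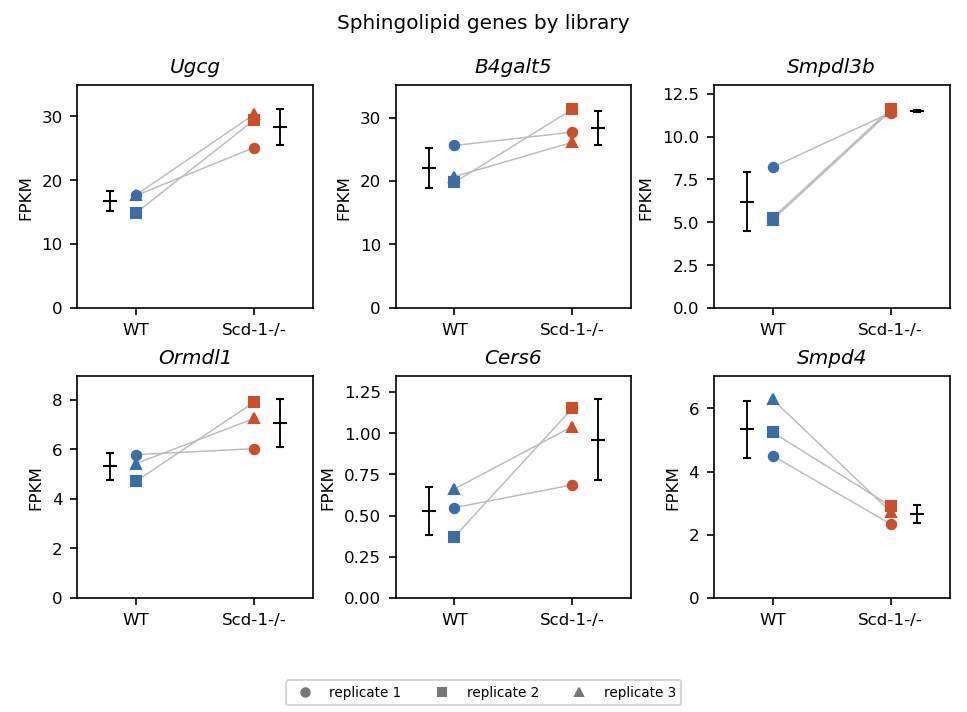
FPKM (y axes, from 0) of 6 sphingolipid genes in each library; symbols give the replicate number, grey lines join libraries of the same number, and black bars are the mean and SD (n = 3 per genotype). In all 6 panels the line of every replicate number runs the same way, upwards for *Ugcg*, *B4galt5*, *Smpdl3b*, *Ormdl1* and *Cers6* and downwards for *Smpd4*.

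Glycosphingolipids begin when *Ugcg* adds glucose to ceramide and *B4galt5* or *B4galt6* adds galactose to give lactosylceramide. *Ugcg* (chromosome 4, 59189257 to 59222833) was at 17.6, 14.9 and 17.7 FPKM in WT and at 25.1, 29.4 and 30.3 FPKM in *Scd-1*-/- libraries, or 16.7 ± 1.59 and 28.3 ± 2.79 (SD, n = 3 each). The lowest knockout library stood well above the highest WT library. The log2 fold change was 0.78 (SE 0.14, 95% interval 0.46 to 1.11), with an adjusted p of 0.0921 without the block and 0.0162 with it, by edgeR's quasi-likelihood test. Leaving out 1 library gave 0.71 to 0.86, with an adjusted p under 0.05 only without *Scd-1*-/- replicate 1 (0.0332).

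*B4galt5* (chromosome 2, 167298444 to 167349183), the next enzyme, was at 25.6, 19.8 and 20.7 FPKM in WT and at 27.7, 31.3 and 26.1 FPKM in *Scd-1*-/- libraries. The groups did not overlap, although WT replicate 1 came within 1 FPKM of the lowest knockout library. Its log2 fold change of 0.39 (SE 0.16, 95% interval 0.02 to 0.75) had an unadjusted p of 0.0393 and an adjusted p of 0.468 (0.122 with the block) in edgeR's quasi-likelihood test. *B4galt6*, the paralog, had no count in WT and 0, 3 and 9 counts in *Scd-1*-/- replicates 1 to 3, so that *B4galt5* held at least 99.6% of their summed FPKM in every library. *St3gal5*, which adds the sialic acid that makes the ganglioside GM3, was low, at 0.755 to 1.17 FPKM, and its log2 fold change was 0.21 (SE 0.34, adjusted p = 0.867 with no FPKM minimum).

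Of the enzymes that break glycosphingolipids down, *Gla*, the lysosomal alpha-galactosidase on the X chromosome, was at 6.66, 8.59 and 8.22 FPKM in WT and at 6.22, 6.72 and 5.56 FPKM in *Scd-1*-/- libraries. WT replicate 1 and *Scd-1*-/- replicate 2 came close to each other, and they parted only after TMM scaling of the libraries. The log2 fold change of -0.32 (SE 0.17, adjusted p = 0.588) did not pass. *Gba2*, the non-lysosomal glucosylceramidase that undoes the *Ugcg* step, ranged from 2.79 to 3.59 FPKM in WT and from 2.47 to 2.73 FPKM in the knockout, and the log2 fold change was -0.24 (SE 0.16, adjusted p = 0.678). *Glb1* had a log2 fold change of -0.01 (95% interval -0.32 to 0.29). *Ugcg* and *B4galt5* thus lay above 0 and the 3 tested hydrolases below 0. By edgeR on all 6 libraries, none of these 5 genes had an adjusted p under 0.05 without the block, and only *Ugcg* did with it. DESeq2 without the block also called *Ugcg* (adjusted p = 0.000168). With replicates 2 and 3 alone, edgeR called *Ugcg* (adjusted p = 0.00171) and *B4galt5* (adjusted p = 0.0257).

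Ceramidases release sphingosine from ceramide. *Asah1* (chromosome 8), the acid ceramidase of the lysosome, was at 7.59, 6.29 and 4.11 FPKM in WT and at 7.85, 9.10 and 5.28 FPKM in *Scd-1*-/- libraries. Replicate 3 was the lowest in both genotypes, the groups overlapped, and the log2 fold change was 0.32 (SE 0.29, 95% interval -0.35 to 0.99). The neutral and alkaline ceramidases were scarce, with *Asah2* at or below 0.320 FPKM, *Acer2* at or below 0.304 FPKM and *Acer3* at or below 0.529 FPKM in every library. The ceramide kinase *Cerk* ranged from 3.24 to 5.16 FPKM in WT and from 2.63 to 4.92 FPKM in the knockout, with replicate 1 the highest in both and a log2 fold change of -0.12.

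Sphingosine is turned into S1P by the sphingosine kinases *Sphk1* and *Sphk2*, S1P is removed by the phosphatase *Sgpp1* and the lyase *Sgpl1*, and *Spns2* exports it. *Sphk1* had no count in any of the 6 libraries, which allows up to 3 counts in each. *Sphk2* was at 5.78 to 7.11 FPKM in WT and 5.80 to 7.07 FPKM in *Scd-1*-/- libraries, and its log2 fold change was 0.02 (SE 0.15, 95% interval -0.34 to 0.37). The kinase transcripts detected were thus all assigned to *Sphk2*, which shares 2546 bases of its locus with *Rpl18* on the opposite strand, and whether counting used strand is not given in the sources used here. *Sgpl1* (chromosome 10) was at 4.40, 4.33 and 4.62 FPKM in WT and at 4.17, 6.02 and 4.92 FPKM in *Scd-1*-/- libraries. WT was tight and the knockout spread around it, and the log2 fold change of 0.20 (SE 0.17, adjusted p = 0.776) did not pass. *Sgpp1* ranged from 10.6 to 19.4 FPKM, with replicate 1 the lowest of both genotypes and a log2 fold change of 0.19. *Spns2* (chromosome 11) was at 0.261, 0.204 and 0.0960 FPKM in WT and 0.473, 0.242 and 0.258 FPKM in *Scd-1*-/- libraries, on 10 to 54 counts. The groups overlapped, and the log2 fold change of 0.80 (SE 0.49, adjusted p = 0.709) did not pass.

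Replicate 1 lay on the same side of replicates 2 and 3 in both genotypes for 10 of the 25 tested genes (40%), against 57.2% of all tested genes. In TMM-scaled CPM it was the higher for *Smpd1*, *Cerk*, *Cers4* and *Degs1* (30.2% of all genes), and the lower for *Sgpp1*, *Kdsr*, *Ormdl2*, *Sphk2*, *Gba2* and *Smpd4* (27% of all genes). With replicates 2 and 3 alone, 5 of 25 genes (*Ugcg*, *Smpdl3b*, *Smpd4*, *Ormdl1* and *B4galt5*) had an adjusted p under 0.05 in edgeR's quasi-likelihood test, against 12.6% of all genes in that fit. Expressed genes overlap 8 of the 36 loci, those of *Cers2*, *Ormdl2*, *Smpd2*, *Sphk2*, *Spns2*, *Gba2*, *Glb1* and *Degs2*, and counts there may include reads of the neighbour. *Ugcg*, *Smpdl3b*, *Smpd4*, *B4galt5* and *Ormdl1* overlap no expressed gene.

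A further list held 54 genes of sphingolipid metabolism, transport and S1P sensing, of which 53 were in the files and 28 were tested. By the study's thresholds 2 of them were called, both lower in *Scd-1*-/- Teff, where 0.239% of all genes were lower by that rule. They were *St8sia1*, the sialyltransferase that turns GM3 into the ganglioside GD3, and *Neu3*, the plasma membrane sialidase that acts on gangliosides. None had an adjusted p under 0.05 in edgeR's quasi-likelihood test without the block (4 of 28, all lower, had an unadjusted p under 0.05, or 14.3% where all genes gave 10.1%, and DESeq2 called 2, where it called 2.76% of all genes), and with the block 4 did, all lower, where 2.06% of all genes were lower by that rule. The median log2 fold change of the 28 was -0.12, with 20 below 0 and 8 above.

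*St8sia1* (chromosome 6, 142821545 to 142964452) was at 1.29, 2.34 and 2.34 FPKM in WT and at 0.535, 0.840 and 0.664 FPKM in *Scd-1*-/- libraries. Its groups did not overlap, and replicate 1 was the lowest library of each. The log2 fold change was -1.52 (SE 0.29, adjusted p = 0.108, and 0.00673 with the block). *Neu3* (chromosome 7, 99811439 to 99828417) was at 3.99, 6.82 and 6.35 FPKM in WT and at 2.06, 2.63 and 1.85 FPKM in *Scd-1*-/- libraries, also without overlap. Its log2 fold change was -1.37 (SE 0.26, adjusted p = 0.115, and 0.0144 with the block, in edgeR's quasi-likelihood test). Leaving out WT replicate 1 gave -1.75 for *St8sia1* and -1.56 for *Neu3*, and leaving out any one of the other 5 libraries took both genes below the thresholds of the study, with unadjusted p from 0.00167 to 0.00547.

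The other 2 genes called with the block encode lysosomal lipid-binding proteins that present glycolipids to their hydrolases. *Gm2a*, the GM2 activator, was at 159, 152 and 151 FPKM in WT and at 127, 65.4 and 61.4 FPKM in *Scd-1*-/- libraries. The knockout libraries were all lower, replicate 1 by far the least (log2 fold change -0.84, SE 0.28, adjusted p = 0.361, and 0.0325 with the block). Leaving out 1 library gave *Gm2a* a log2 fold change of -1.26 to -0.66. It passed the thresholds of the study only without *Scd-1*-/- replicate 1 (edgeR adjusted p = 0.00709), and without *Scd-1*-/- replicate 3 the adjusted p was 0.916. *Psap*, the precursor of the saposins, was at 160, 148 and 130 FPKM in WT and at 126, 86.1 and 74.0 FPKM in *Scd-1*-/- libraries. Its lowest WT and highest knockout library met after TMM scaling (log2 fold change -0.59, SE 0.21, adjusted p = 0.396, and 0.0261 with the block, in edgeR's quasi-likelihood test). *B4galnt1*, which makes GM2 from GM3 and was the most abundant gene of this list, with 272 ± 20.5 FPKM in WT, had 277 ± 10.2 FPKM in the knockout (n = 3 each, SD, log2 fold change 0.05, 95% interval -0.21 to 0.32).

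**Figure D5:**
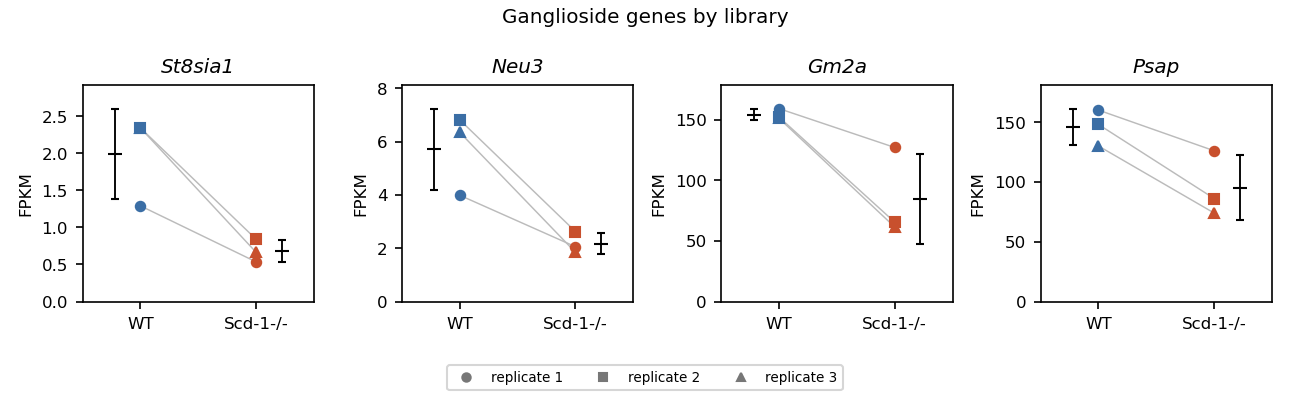
FPKM (y axes, from 0) of *St8sia1*, *Neu3*, *Gm2a* and *Psap* in each library, with symbols for the replicate number, grey lines between libraries of the same number and black bars for the mean and SD (n = 3 per genotype). Each line falls from WT to *Scd-1*-/-, and the lines of replicate 1 for *Gm2a* (159 to 127) and *Psap* (160 to 126) fall the least.

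Among the receptors for S1P, *S1pr4* and *S1pr1* were the abundant ones. *S1pr1*, the receptor for exit from lymphoid organs, was at 66.9, 25.6 and 26.4 FPKM in WT and at 52.7, 24.6 and 24.5 FPKM in *Scd-1*-/- libraries. Replicate 1 was the high library of both genotypes, which left a SE of 0.46 on a log2 fold change of -0.21. *S1pr4* (log2 fold change 0.23) and *S1pr2* (-0.28) overlapped between the genotypes as well. *S1pr3* had 2, 0 and 7 counts in WT and 24, 16 and 17 counts in *Scd-1*-/- libraries (log2 fold change 2.56, SE 0.87, adjusted p = 0.362 with no FPKM minimum, in edgeR's quasi-likelihood test), and *S1pr5* had none.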

How the data were processed

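RNA of CD8+ Teff was measured in 6 libraries, 3 WT and 3 *Scd-1*-/-. The authors aligned the reads to GRCm38 with HISAT2 and deposited, per gene and library, raw counts that are not normalised. They also deposited FPKM. Both come from StringTie 1.3.0. The study's methods name TMM before the conversion to FPKM, but between libraries the FPKM scaled with the plain library totals. Total RNA with a stranded kit is named in the study's methods and polyA RNA with another kit in the labels, and the strand setting of the counting is not given in the sources used here.

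Counts were tested with edgeR 4.0.16 (quasi-likelihood, TMM factors 0.986 to 1.03) in R 4.3.3 for 9627 genes, those whose FPKM averaged 1 or more over the libraries, with Benjamini-Hochberg adjustment over all of them. The interval beside a fold change is the 95% interval of that fit. Genes under the minimum were read from the same fit to all 17192 genes with a count. Replicate numbers were checked for pairing by the correlation of the libraries' deviations from their genotype mean. It was 0.618, 0.324 and 0.493 for replicates 1, 2 and 3, and -0.592 to 0.422 between different numbers. The 0.422, of WT replicate 3 and *Scd-1*-/- replicate 2, exceeded the 0.324 of the replicates 2. Pairing by number was therefore less clear for replicates 2 and 3 than for replicate 1, and the labels state no shared batch. The fit with the number as a block is given beside a result whose call it changes. Alternatives were DESeq2 1.42.0, limma 3.58.1 on log2(FPKM + 1) and log2(FPKM + 0.1), other scalings and minimums, and leaving out libraries.

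The 36 genes, the further list and the marker lists were chosen with earlier results of these data known. Values in every library are given for the 12 genes with the smallest p, for genes past a threshold with or without the block, and for *Sptlc1*, *Sptlc2*, *Degs1*, *Cers2*, *Ugcg*, *Sgms1*, *Asah1*, *Sphk1*, *Sgpl1* and *Ormdl3*. Genes of the further list are named where they passed a threshold or are S1P receptors. *Smpd1*, *B4galnt1* and the others were named after their values were seen. Gene positions are from GENCODE M21, which held 98.62% of the 34745 gene identifiers and all 36 genes here, and promoters are from RefSeq (GRCm38.p6). One marker gene is not reported here.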

Additional observations from a re-analysis of the deposited data

How the results depend on the processing

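In the main test 0 of the 25 sphingolipid genes passed the thresholds of the study. That count was 1 with replicates 2 and 3 only, and 0 to 2 when 1 library was left out, the 2 being *Smpd4* and *Smpdl3b* without WT replicate 1. The count with an adjusted p under 0.05 was 0 in the main test, 3 in DESeq2, 3 with the replicate block, 3 with the replicate block and no FPKM minimum (an alternative chosen after seeing the data), 5 with replicates 2 and 3 only, and 0 to 2 when 1 library was left out. The 8 genes whose groups did not overlap became 5 of the 18 tested at an FPKM minimum of 5 (27.8%, against 15.8% of all genes), where *Smpd4* and *Gba2* were not tested and the groups of *B4galt5* overlapped. The count was 18 of 25 with replicates 2 and 3 only (72%, against 59.8% of all genes), and 8 to 16 when 1 library was left out. It was lowest without *Scd-1*-/- replicate 2 (32%, against 21.6% of all genes) and highest without *Scd-1*-/- replicate 1 (64%, against 38%). Without WT replicate 1 it was 10 of 25 (40%, against 38% of all genes). Of the further list, 2 genes, *St8sia1* and *Neu3*, passed the thresholds of the study in the main test. At an FPKM minimum of 5 neither of them was tested, and 0 genes of the list passed. The count was 0 in limma on log2(FPKM + 1) (56 of all genes), 1 in limma on log2(FPKM + 0.1) (70 of all genes) and 3 with replicates 2 and 3 only. It was 0 to 2 when 1 library was left out (2 without WT replicate 1). For the further list, the count with an adjusted p under 0.05 was 0 in the main test, 2 in DESeq2, 4 with the replicate block, 4 with the replicate block and no FPKM minimum, 4 with replicates 2 and 3 only, and 0 to 2 when 1 library was left out. At the adjusted threshold the block changed no other call among the sphingolipid genes named. The log2 fold change of *Sptlc1*, 0.02 in the main test, ran from -0.07 to 0.15 when 1 library was left out, and that of *Ormdl3*, 0.10 in the main test, was -0.01 with replicates 2 and 3 only. Of the sphingolipid genes chosen by the rule for naming (18 with a count, beside *St8sia1*, *Neu3*, *Gm2a* and *Psap*), none had an adjusted p under 0.05 in the main test, and 37 of their 322 alternative values did, while 4 changed sign. Over all genes tested, 71 passed the thresholds of the study in the main test, 184 with the block, 161 in DESeq2, 369 with replicates 2 and 3 only, and 25 to 163 when 1 library was left out. Their count with an adjusted p under 0.05 was 11 in the main test, 452 with the block, 266 in DESeq2, 1213 with replicates 2 and 3 only, and 2 to 182 when 1 library was left out. With the block and no FPKM minimum it was 750 of 17192 genes. The cause of these differences was not tested. Depth limits what can be said of *Degs2*, *Sgms2* and *B4galt6*, with at most 9 counts in a library, and of *Sphk1*, with none.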
